A study of Mus musculus with 30 samples.

Results

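The change in gene expression between 6 and 24 h of lipopolysaccharide (LPS) was compared between dendritic cells without and with Irf4. For each gene the log2 change from 6 to 24 h in Irf4 knockout (KO) cells was reduced by the log2 change over the same interval in control cells. The remainder is called the genotype difference here, and a negative value means that the KO change was the lower one. All arrays labelled as LPS-treated entered, 20 of the 30 arrays of the series. They formed 4 groups of 5 biological replicates: KO LPS 24 h, KO LPS 6 h, control LPS 24 h and control LPS 6 h. The cells were dendritic cells grown from mouse bone marrow and selected with magnetic beads for CD11c, the integrin that marks these cells. KO donors were C57BL/6 mice with the CD11c-Cre transgene and IRF-4 flox/flox alleles, and control donors were C57BL/6 mice with the CD11c-Cre transgene alone, so every group carried Cre. Cre was driven by CD11c, so that deletion depends on CD11c expression and precursors without CD11c would keep the gene. The sources used here give neither age nor sex of the mice, nor whether a replicate was a mouse or a culture. P-values therefore measure the spread between these samples only, which may be technical. The remaining 10 arrays, of unstimulated cells, entered only the common estimate of the spread.

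Irf4 codes for one of the interferon regulatory factors, a transcription factor that binds DNA weakly alone and more strongly beside partners of the ETS and AP-1 families. In dendritic cells it is known for its part in the CD11b-positive subset and in antigen presentation on MHC class II. LPS is the bacterial ligand of the receptor TLR4, and it induces cytokines and interferon-stimulated genes within hours. Many of these fall again as feedback inhibitors accumulate, which is called the resolution of the response. The interval from 6 to 24 h covers that phase, and the genotype difference asks whether it depended on Irf4.

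Levels are given as log2 ratios of sample (Cy5) over a universal mouse reference RNA (Cy3) that was on every array, and the reference cancels in differences. Of 41174 probes, 18463 to 27227 were well above background per array, and 11260 genes entered the test. Replicate 3 of control LPS 6 h and replicate 2 of control LPS 24 h stood apart, and each correlated best with an unstimulated control array (r = 0.95 and 0.91 across genes). Both lay on slide 9, which held no other array, and both were scanned on a different day from all other arrays, so slide, scan day and these samples cannot be told apart. Their LPS responses were regressed on the KO response over the genes whose mean moved at least 2-fold with LPS in KO cells, 1191 at 6 h and 858 at 24 h. The slopes were -0.0378 and 0.137, while the rest of their groups had 0.691 to 0.842 and 0.652 to 0.781. Results are therefore given with all arrays and without these 2. No slide held both genotypes at 1 LPS time or both LPS times of KO cells, so no slide gives the genotype difference by itself.

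Irf4 itself separated the genotypes on every array. Its log2 ratio was -0.47, -0.056, -0.38, 0.62 and 0.14 in KO cells at 24 h and -0.31, -0.11, -0.20, 0.41 and -0.34 in KO cells at 6 h. It was 1.99, 2.68, 2.23, 1.86 and 1.95 in control cells at 24 h and 2.44, 2.55, 2.13, 2.42 and 1.99 in control cells at 6 h. Every KO array lay under every control array at both times, and the times overlapped within each genotype. The genotype difference in its change was 0.25 ± 0.38 (± SE, n = 5 per group, adjusted p = 0.999). A single probe measured the gene, and no source used here places it inside or outside the deleted part.

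The changes from 6 to 24 h ran largely in the same direction in KO and control cells, and few genes differed between them. In KO cells 872 of 11260 genes changed between 6 and 24 h (7.74%, 399 or 3.54% higher and 473 or 4.2% lower at 24 h; limma, Benjamini-Hochberg adjusted p under 0.05). In control cells 617 did (5.48%, 371 or 3.29% higher and 246 or 2.18% lower). Of the genes called in KO cells 797 (91.4%) had the same sign in control cells, and of those called in control cells 565 (91.6%) had it in KO cells, against 68.3% of all genes. Called in both genotypes were 252 genes, 28.9% of the KO and 40.8% of the control calls, and 251 of them had the same sign. Across genes the KO and control changes correlated with r = 0.654, a description of genes that share arrays and the reference. The genotype difference passed the test for 12 genes (0.107%), 3 with a higher KO change (0.0266%) and 9 with a lower one (0.0799%), and 5 (0.0444%) differed at least 2-fold. At an unadjusted p under 0.05 there were 771 genes (6.85%), 312 (2.77%) higher and 459 (4.08%) lower. From the Cy5 signal alone there were 33 calls, 17 higher and 16 lower, and with the background as scanned 7, all lower. Among the 12 genes the change was called in KO cells only for 5, in control cells only for 6, and in both, with opposite signs, for 1. The 12 calls depended on single arrays. Without KO 6 h replicate 2 or 3, limma called 0 genes, with 662 and 642 at an unadjusted p under 0.05. Without KO 24 h replicate 1, 2 or 3 it called 2, 2 and 4, without KO 6 h replicate 1 it called 4, and without control 24 h replicate 5 or control 6 h replicate 4 it called 2 and 1. Without control 6 h replicate 3 it called 30. The slide as a random block left 1 call, Ttc39c (adjusted p = 0.0434), and a fit to the 20 LPS arrays alone left 2. Arrays with the same replicate number deviated together, and with the number as a block (the replicate block) 58 genes (0.515%) differed between the genotypes, among them all 12. The block raised the changed genes to 2020 (17.9%) in KO cells, 994 (8.83%) higher and 1026 (9.11%) lower, and to 1569 (13.9%) in control cells, 927 (8.23%) higher and 642 (5.7%) lower. Among the 12 it added the KO changes of Glcci1 (adjusted p = 0.0184) and Ndufa5 (adjusted p = 0.019) and the control change of Mtf2 (adjusted p = 0.0416).

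**Figure D1:**
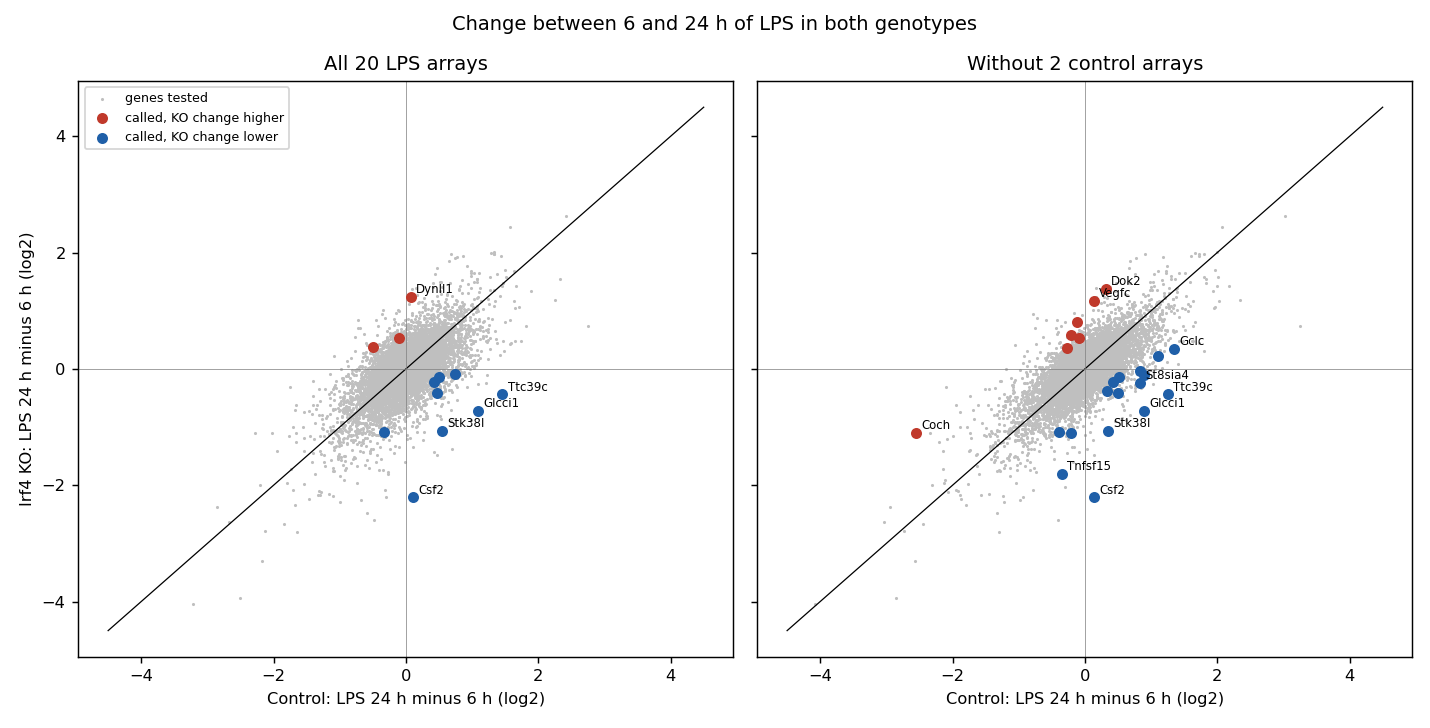
Log2 change from 6 to 24 h of LPS in KO cells (vertical) against that in control cells (horizontal) for 11260 genes, with all 20 LPS arrays (left) and without 2 control arrays (right). The diagonal marks equal changes; called genes are coloured and those with a difference of at least 1 on the log2 scale are named, such as Csf2 at -2.21 in KO cells and 0.11 in control cells.

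For 3 genes with a lower KO change a fall was called in KO cells and no rise in control cells. Csf2 encodes the cytokine GM-CSF, a growth factor of dendritic cells and macrophages, and had the largest difference of the 12. Its log2 ratio was -0.024, -0.18, 0.60, 0.89 and 0.99 in KO cells at 24 h and 2.92, 3.23, 3.82, 2.03 and 1.33 in KO cells at 6 h. It was -0.093, -0.22, -0.18, 0.42 and 0.63 in control cells at 24 h and -0.052, -0.12, -0.18, 0.20 and 0.18 in control cells at 6 h. All KO arrays at 6 h stood above those of the other 3 groups, which overlapped. Csf2 was well above background on 3 of 5 KO arrays at 24 h and 5 of 5 at 6 h, but on 1 of 5 control arrays at each time, so the control change lies near the detection limit. Csf2 entered the test through KO LPS 6 h alone, the group where it was highest. It fell by 2.21 in KO cells (adjusted p = 4.33e-05), and the genotype difference was -2.32 ± 0.42 (adjusted p = 0.0293). Stk38l, which encodes a serine/threonine kinase of the NDR family, had 0.46, 0.53, 0.84, 0.34 and 0.38 in KO cells at 24 h and 1.45, 1.83, 2.05, 1.43 and 1.09 in KO cells at 6 h. In control cells it had -0.085, 0.29, -0.52, 0.096 and 0.45 at 24 h and -0.21, -0.38, -1.06, -0.47 and -0.37 at 6 h. KO arrays at 6 h were again the highest, and KO 24 h arrays overlapped with control 24 h arrays. It fell in KO cells (-1.06, adjusted p = 0.00211), and the genotype difference was -1.61 ± 0.30 (adjusted p = 0.0293). A second Stk38l probe gave -1.39.

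Mtf2 encodes a Polycomb-like partner of the histone methyltransferase complex PRC2. Its KO arrays had 0.70, 0.72, 0.77, 0.75 and 0.69 at 24 h and 1.91, 1.97, 2.00, 1.65 and 1.53 at 6 h. Its control arrays had -0.43, -0.44, -0.46, -0.18 and -0.36 at 24 h and 0.12, 0.15, -0.32, -0.23 and 0.071 at 6 h. KO arrays exceeded control arrays at both times, and by more at 6 h. Mtf2 fell by 1.08 in KO cells (adjusted p = 5.84e-07), with -0.33 in control cells (adjusted p = 0.0641, or -0.39 without the 2 control arrays, adjusted p = 0.0254). The genotype difference was -0.75 ± 0.15 (adjusted p = 0.0374), and its 3 probes gave -0.75, -0.78 and -0.76.

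For the other 6 genes with a lower KO change, the control cells gained expression by 24 h. Ttc39c, which encodes a tetratricopeptide repeat protein, had 1.43, 1.45, 1.35, 1.69 and 1.64 in KO cells at 24 h and 1.86, 2.02, 2.22, 1.88 and 1.77 in KO cells at 6 h. Control arrays had 3.06, 2.60, 3.07, 2.37 and 2.73 at 24 h and 1.61, 1.62, 0.34, 1.54 and 1.45 at 6 h. KO cells lay above control cells at 6 h and below them at 24 h, with no overlap at either time. Ttc39c rose in control cells (1.45, adjusted p = 0.000212), its KO change was -0.44 (adjusted p = 0.263), and the genotype difference was -1.89 ± 0.32 (adjusted p = 0.0186). It was called under all 16 other settings and in 18 of 20 fits without 1 array, more often than any other of the 12. Glcci1, named as a glucocorticoid-induced transcript, had -1.81, -2.16, -2.17, -2.12 and -2.07 in KO cells at 24 h and -0.87, -0.95, -0.86, -2.23 and -1.80 in KO cells at 6 h. Control arrays had -0.92, 0.19, -1.12, -0.70 and -0.82 at 24 h and -1.72, -1.70, -1.69, -1.85 and -1.87 at 6 h. All control arrays at 24 h lay above those at 6 h, while of the KO arrays at 6 h replicates 1, 2 and 3 were high and replicates 4 and 5 lay beside the KO arrays at 24 h. It rose by 1.09 in control cells (adjusted p = 0.00722), and the genotype difference was -1.81 ± 0.34 (adjusted p = 0.0327).

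Smurf2 encodes an E3 ubiquitin ligase known for degrading components of the TGF-beta pathway. It had -0.53, -0.35, -0.72, -0.65 and -0.78 in KO cells at 24 h and -0.33, -0.13, -0.14, 0.076 and -0.47 in KO cells at 6 h. In control cells it had -0.40, -0.41, -0.16, -0.32 and -0.49 at 24 h and -0.85, -0.82, -0.75, -0.86 and -0.86 at 6 h. Its change passed the test in both genotypes and in opposite directions, -0.41 in KO cells (adjusted p = 0.0163) and 0.47 in control cells (adjusted p = 0.0082). The genotype difference was -0.88 ± 0.15 (adjusted p = 0.0186). Gtpbp4, a nucleolar GTPase of large ribosomal subunit assembly, ranged over -0.49 to -0.29 in KO cells at 24 h and -0.43 to -0.001 at 6 h, and over 0.46 to 0.93 in control cells at 24 h and -0.53 to 0.18 at 6 h. Only the control change was called (0.73), and the genotype difference was -0.81 ± 0.17 (adjusted p = 0.0374), with -0.76 from a second probe. Dhx36, a helicase that unwinds G-quadruplexes, differed by -0.64 ± 0.13 (adjusted p = 0.0374), but its second probe gave -0.25. Rnf215, a RING finger protein, differed by -0.64 ± 0.13 (adjusted p = 0.0374), and was added to the named genes because it was called. Both rose in control cells, by 0.42 and 0.50.

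A higher KO change was called for 3 genes. Dynll1 encodes a light chain of the motor protein dynein. It had 0.13, 0.22, 0.46, 0.11 and 0.0051 in KO cells at 24 h and -1.10, -1.32, -1.38, -0.83 and -0.66 in KO cells at 6 h. In control cells it had -0.067, -0.63, -0.25, -0.11 and -0.15 at 24 h and -0.57, -0.78, 0.12, -0.34 and -0.015 at 6 h. KO arrays at 6 h were the low ones and overlapped with control arrays at 6 h, and all KO arrays at 24 h stood above the control arrays of that time. Dynll1 rose by 1.24 in KO cells (adjusted p = 3.89e-05), and the genotype difference was 1.17 ± 0.24 (adjusted p = 0.0374), or 0.96 ± 0.23 without the 2 control arrays (adjusted p = 0.0707). Ndufa5 encodes a subunit of mitochondrial complex I. It had -0.71, -0.67, -0.78, -0.70 and -0.56 in KO cells at 24 h and -1.14, -1.17, -1.29, -0.80 and -0.94 in KO cells at 6 h. Control arrays had -0.97, -1.17, -0.99, -0.88 and -1.0 at 24 h and -0.58, -0.82, -0.14, -0.50 and -0.53 at 6 h. The order of the times was opposite in the genotypes, with no overlap in either. It fell in control cells (-0.49, adjusted p = 0.0185), with 0.39 in KO cells (adjusted p = 0.054), and the genotype difference was 0.88 ± 0.18 (adjusted p = 0.0374), or 0.74 ± 0.17 without the 2 control arrays (adjusted p = 0.0649). The control change of Ndufa5 was then -0.35 (adjusted p = 0.077). The probe assigned to Olfr615, an olfactory receptor gene, differed by 0.63 ± 0.13 (adjusted p = 0.0374) and was well above background on 3 of 5 KO arrays at 6 h and 5 of 5 arrays of each other LPS group.

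**Figure D2:**
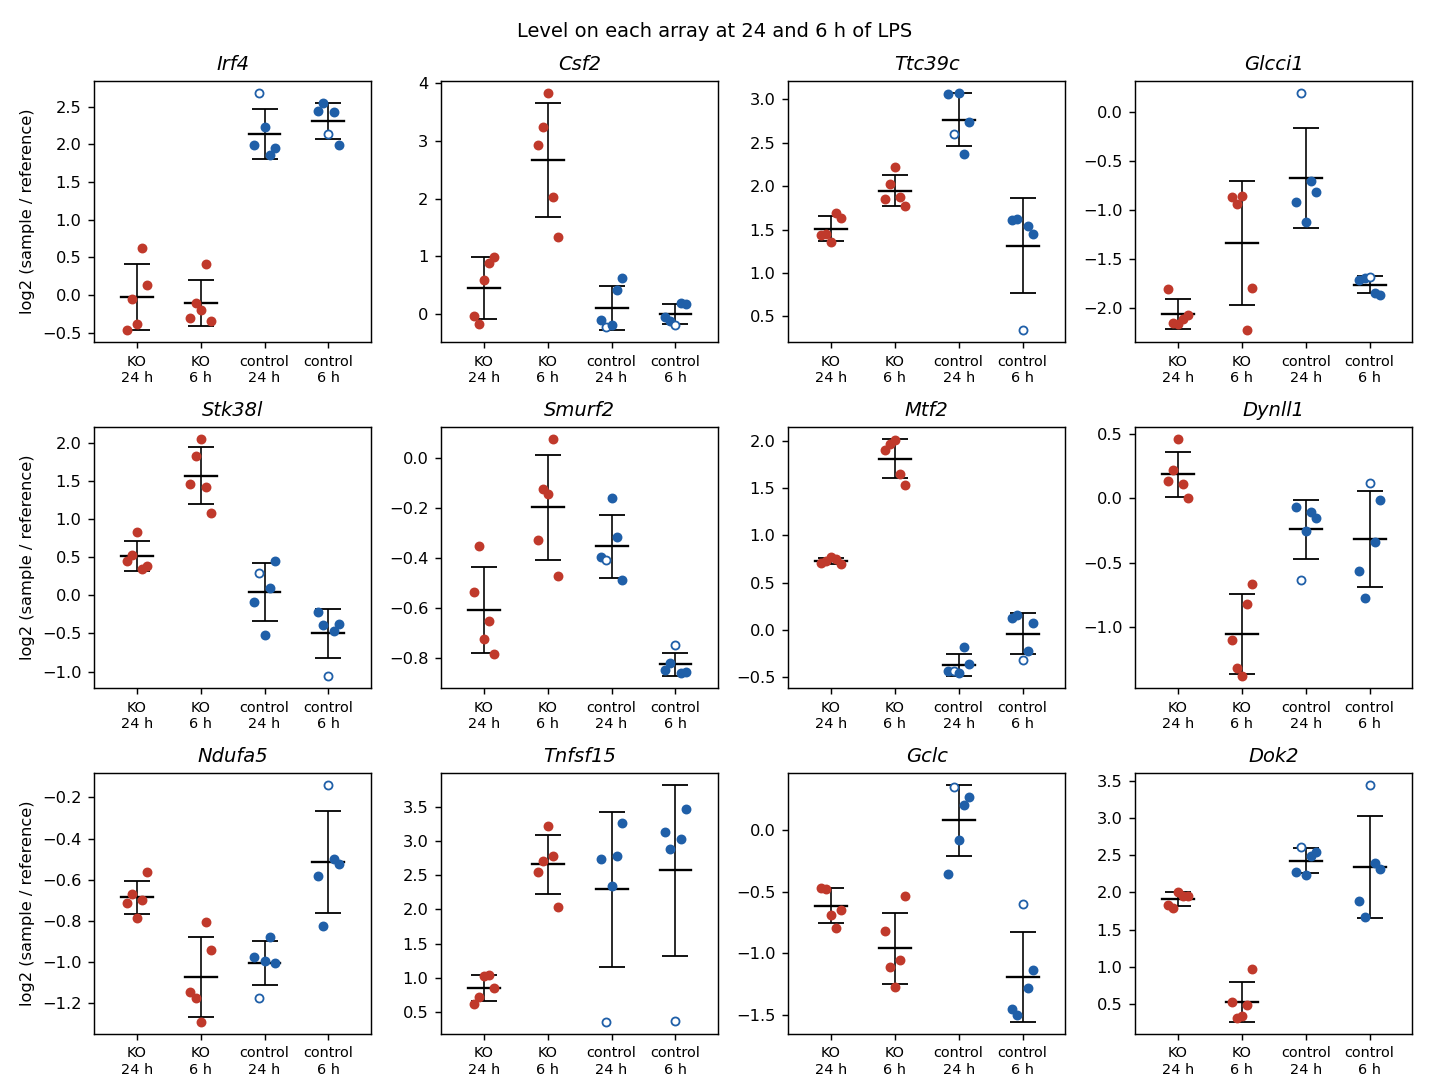
Log2 ratio of sample over reference on every array for Irf4 and 11 genes whose difference was called in 1 or both fits. Points are arrays (KO red, control blue, the 2 control arrays that stood apart open), long bars are means and whiskers SD over 5 arrays; KO 6 h arrays of Csf2 lie at 1.33 to 3.82, above the other 3 groups.

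Without the 2 control arrays the test called 23 genes (0.204%), 7 with a higher KO change (0.0622%) and 16 with a lower one (0.142%), and 10 (0.0888%) differed at least 2-fold. At an unadjusted p under 0.05 there were 802 genes (7.12%), 358 (3.18%) higher and 444 (3.94%) lower. Of the 12 genes above, 9 were called again, and Dynll1, Ndufa5 and Gtpbp4 were not, at adjusted p of 0.0707, 0.0649 and 0.0597. The other 14 were called only without the 2 arrays, and all 26 genes had the same sign in both fits. With the replicate block and without the 2 arrays 118 genes (1.05%) were called, among them all 26, while with the block and all arrays 16 of the 26 were. In control cells the block then gave 2467 changed genes (21.9%), 1339 (11.9%) higher and 1128 (10%) lower. KO and control changes then correlated with r = 0.745 across genes, and 1486 genes (13.2%) changed in KO and 1070 (9.5%) in control cells, 606 (5.38%) of these higher at 24 h and 464 (4.12%) lower.

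Among the 14, a cytokine and a transporter with a lower KO change fell in KO cells, with no rise called in control cells. Here and below, adjusted p-values of KO changes are from fits with all arrays. Tnfsf15 encodes TL1A, a ligand of the TNF family that costimulates T cells. It had 0.62, 0.72, 1.02, 1.04 and 0.86 in KO cells at 24 h and 2.55, 2.71, 3.22, 2.79 and 2.04 in KO cells at 6 h. In control cells it had 2.74, 0.36, 2.34, 2.78 and 3.27 at 24 h and 3.12, 2.89, 0.37, 3.03 and 3.46 at 6 h. Apart from the low values of control 24 h replicate 2 and control 6 h replicate 3, both control groups overlapped near the KO 6 h level, and all KO arrays at 24 h were lower than the other control arrays. Tnfsf15 fell in KO cells (-1.81, adjusted p = 0.00991), and the genotype difference was -1.46 ± 0.26 (adjusted p = 0.0245), against -1.53 ± 0.62 with all arrays (adjusted p = 0.543). Slc49a4, a lysosomal membrane transporter, also fell in KO cells (-1.10, adjusted p = 0.000113) and differed by -0.88 ± 0.15 (adjusted p = 0.0244), but a second probe gave -0.14 with all arrays.

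Without the 2 arrays 6 of the 14 genes rose in control cells and had a lower KO change. Gclc encodes the catalytic subunit of glutamate-cysteine ligase, the rate-limiting enzyme of glutathione synthesis, which limits oxidative damage. It had -0.47, -0.47, -0.69, -0.79 and -0.65 in KO cells at 24 h and -0.82, -1.11, -1.27, -1.06 and -0.54 in KO cells at 6 h. Its control arrays had -0.35, 0.35, -0.082, 0.21 and 0.27 at 24 h and -1.45, -1.50, -0.60, -1.28 and -1.13 at 6 h. The control groups did not overlap and the KO groups did. Gclc rose by 1.35 in control cells (adjusted p = 2.07e-06), its KO change was 0.34, and the difference was -1.01 ± 0.20 (adjusted p = 0.0287). St8sia4, a polysialyltransferase, had 3.53 to 3.63 in KO cells at 24 h, 3.41 to 4.27 in KO cells at 6 h, 4.30 to 4.73 in control cells at 24 h and 1.71 to 3.89 in control cells at 6 h, where replicate 3 was the lowest. It differed by -1.07 ± 0.21 (adjusted p = 0.0257). Gigyf2, a translational repressor (-1.0 ± 0.22, second probe -0.40 with all arrays), Lactb, a mitochondrial protein related to bacterial beta-lactamases (-0.89 ± 0.18, second probe -0.31 with all arrays), Sestd1 (-0.86 ± 0.16) and Mpp5, a polarity scaffold (-0.72 ± 0.14), made up the rest. Lactb, Sestd1, Mpp5 and Slc49a4 were added to the named genes because they were called.

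For 6 of the 14 genes a higher KO change was called only without the 2 arrays. Dok2 encodes an adaptor that restrains tyrosine kinase signals in myeloid cells. It had 1.82, 1.79, 2.01, 1.96 and 1.95 in KO cells at 24 h and 0.53, 0.31, 0.34, 0.49 and 0.98 in KO cells at 6 h. In control cells it had 2.27, 2.62, 2.23, 2.48 and 2.54 at 24 h and 1.88, 1.67, 3.45, 2.40 and 2.31 at 6 h. KO arrays at 6 h were the lowest, and the control groups overlapped. Dok2 rose by 1.38 in KO cells (adjusted p = 0.000183), and the difference was 1.06 ± 0.23 (adjusted p = 0.0466), against 1.29 ± 0.30 with all arrays (adjusted p = 0.0953). Vegfc, a growth factor of lymphatic vessels, had 0.082, 0.02, 0.011, -0.35 and -0.20 in KO cells at 24 h and -1.39, -1.31, -1.18, -1.26 and -1.17 in KO cells at 6 h. Control arrays had -1.12, -1.58, -1.10, -1.91 and -1.80 at 24 h and -1.77, -1.70, -3.04, -1.66 and -1.34 at 6 h. It rose in KO cells (1.17, adjusted p = 0.000893), where all arrays at 24 h exceeded every other LPS array, and differed by 1.04 ± 0.22 (adjusted p = 0.0348).

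Sqle encodes squalene epoxidase, an enzyme of cholesterol synthesis, and had -2.28, -2.17, -2.28, -2.56 and -2.61 in KO cells at 24 h and -2.84, -3.03, -3.05, -2.96 and -2.92 in KO cells at 6 h. In control cells it had -2.42, -1.77, -2.27, -2.82 and -2.61 at 24 h and -2.38, -2.21, -0.38, -2.40 and -2.32 at 6 h. KO arrays at 24 h lay above those at 6 h, and control replicate 3 at 6 h was the highest of its group. It differed by 0.78 ± 0.15 (adjusted p = 0.0257). Ift57, of the intraflagellar transport complex, differed by 0.92 ± 0.19, with 3 probes at 0.65, 0.68 and 0.63 in the fit with all arrays, and Asphd2 by 0.62 ± 0.12. Coch, which encodes the secreted protein cochlin, had 0.042 to 0.42 in KO cells at 24 h, 0.98 to 1.88 in KO cells at 6 h, -0.17 to 0.48 in control cells at 24 h and 0.33 to 3.17 in control cells at 6 h. It was not well above background on any KO or control array at 24 h, so the changes are bounds and the called difference (1.45 ± 0.28, adjusted p = 0.0257) was not measured at 24 h; Agilent's log ratios gave -0.15 with all arrays. At 6 h 4 of 5 control arrays lay above all KO arrays, and control replicate 3 lay below them.

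**Figure D3:**
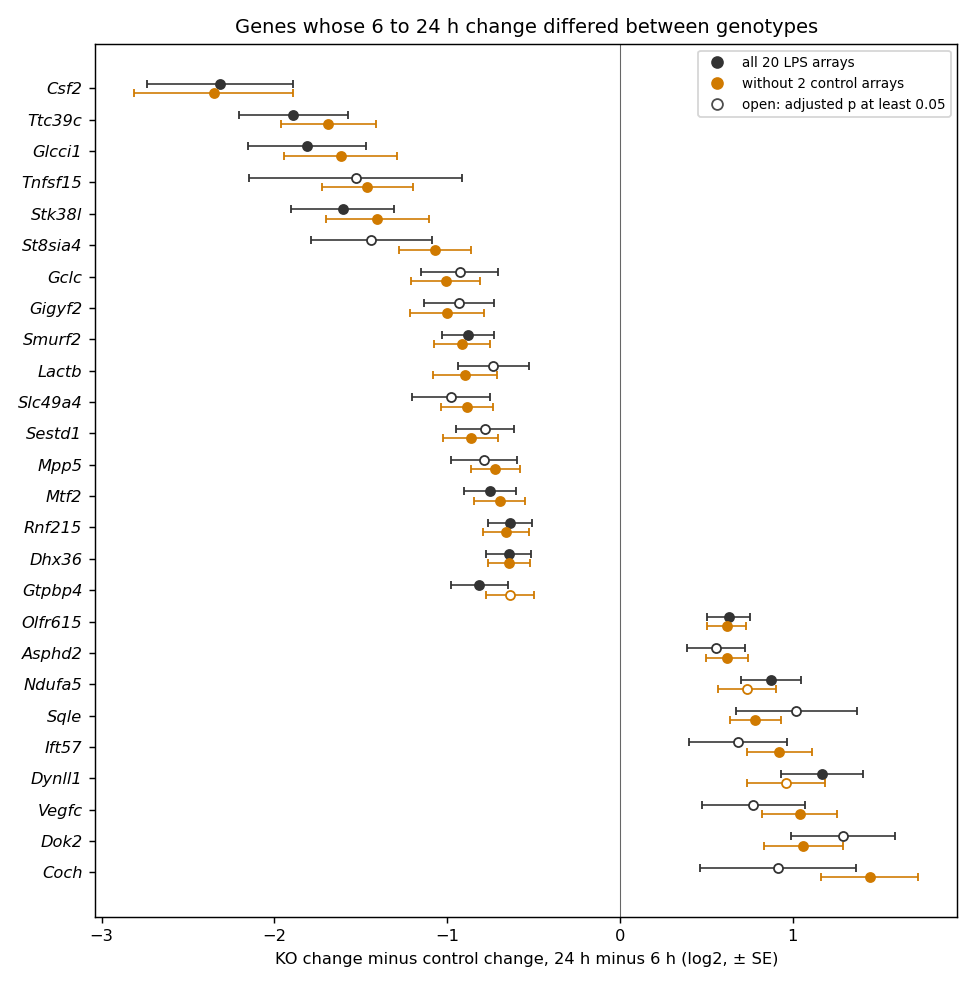
KO change minus control change from 6 to 24 h (log2, ± SE) for the 26 genes called in 1 or both fits, with all 20 LPS arrays (dark) and without 2 control arrays (orange); filled points passed the test and open points did not. Values run from -2.35 for Csf2 to 1.45 for Coch without the 2 arrays, and both fits give each gene the same sign.

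Dkk1, Acp6 and Clec4b1 had differences with all arrays that were not called without the replicate block. Dkk1, a secreted Wnt antagonist, was well above background on 5 of 5 KO arrays at 24 h and on none of the other 15 LPS arrays. It entered the test through KO LPS 24 h alone, the group where it was high. Its values in the other LPS groups are bounds, and so is its difference. Its log2 ratio was 1.59, 1.97, 2.25, 0.67 and 0.55 in KO cells at 24 h, and the genotype difference was 1.25 ± 0.30 (adjusted p = 0.105). Acp6, a lysophosphatidic acid phosphatase, fell in control cells (-0.40, adjusted p = 0.02), with a genotype difference of 0.58 ± 0.15 (adjusted p = 0.121). The lectin gene Clec4b1 differed by 1.32 ± 0.33 (adjusted p = 0.121). With the replicate block Acp6 (0.58 ± 0.12, adjusted p = 0.0226, or 0.0195 without the 2 control arrays) and Clec4b1 (1.32 ± 0.24, adjusted p = 0.0152, or 0.0256) passed the test, and Dkk1 did not (adjusted p = 0.065 and 0.0768).

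Promoters of the 26 genes were read for elements tied to IRF4 and its partners. A promoter here is the 250 bases before a RefSeq transcript start (GRCm38.p6), and 20 of the 26 genes matched an entry. The IRF core AANNGAAA, whose Ns stand for any base, and the AP-1 element TGANTCA were searched on both strands, and their matches do not overlap here. The IRF core was found for 3 of the 20 genes, Tnfsf15, Vegfc and Lactb, and in 21.3% of all 32851 promoters. The AP-1 element was found for 2 genes, Ndufa5 and Slc49a4, and in 6.75% of all promoters. All 5 are shown because they carry matches, with the matched bases in capitals. These windows are at chr4:63745060-63745309 (minus strand) for Tnfsf15, chr8:54077282-54077531 (plus strand) for Vegfc, chr9:66975485-66975734 (minus strand) for Lactb, chr6:24527527-24527776 (minus strand) for Ndufa5 and chr16:35769371-35769620 (minus strand) for Slc49a4.
Tnfsf15: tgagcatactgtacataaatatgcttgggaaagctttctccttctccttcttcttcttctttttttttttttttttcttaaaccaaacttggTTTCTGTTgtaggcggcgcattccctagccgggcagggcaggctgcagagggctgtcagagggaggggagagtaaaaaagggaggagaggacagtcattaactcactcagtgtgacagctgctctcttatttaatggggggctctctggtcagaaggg
Vegfc: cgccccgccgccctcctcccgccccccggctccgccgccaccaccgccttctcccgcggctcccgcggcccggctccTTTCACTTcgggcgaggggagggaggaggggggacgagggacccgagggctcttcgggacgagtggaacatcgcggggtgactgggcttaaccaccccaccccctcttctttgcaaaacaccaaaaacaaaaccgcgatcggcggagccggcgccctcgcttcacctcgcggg
Lactb: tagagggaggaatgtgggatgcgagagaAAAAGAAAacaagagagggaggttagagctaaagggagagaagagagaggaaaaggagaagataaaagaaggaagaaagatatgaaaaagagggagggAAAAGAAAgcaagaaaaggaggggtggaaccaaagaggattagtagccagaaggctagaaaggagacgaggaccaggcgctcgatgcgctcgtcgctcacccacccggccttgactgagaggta
Ndufa5: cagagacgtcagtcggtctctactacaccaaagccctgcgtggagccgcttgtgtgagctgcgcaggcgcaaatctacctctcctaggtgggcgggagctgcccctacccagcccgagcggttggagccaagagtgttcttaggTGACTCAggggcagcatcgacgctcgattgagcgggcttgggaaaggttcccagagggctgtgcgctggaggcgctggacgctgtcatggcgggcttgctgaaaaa
Slc49a4: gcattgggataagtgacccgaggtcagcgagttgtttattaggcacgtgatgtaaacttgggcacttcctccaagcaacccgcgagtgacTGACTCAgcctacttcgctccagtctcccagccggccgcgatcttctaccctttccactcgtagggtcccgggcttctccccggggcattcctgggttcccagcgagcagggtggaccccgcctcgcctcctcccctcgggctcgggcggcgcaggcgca
The matches describe letters in a window and say nothing of binding.

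Among cytokines and chemokines no member was called higher at 24 h in either genotype, where 3.54% and 3.29% of all genes were. Csf2 and Tnfsf15 were the members with a called difference. Of 34 measured members of the list 8 fell in KO cells and 5 in control cells, or 9 in control cells without the 2 arrays, where 4.2%, 2.18% and 4.12% of all genes fell. The KO count is from the fit with all arrays. The genotype difference was called for 1 member (Csf2), and without the 2 arrays for 2, where 0.107% and 0.204% of all genes were called. The median difference was -0.23, against 0 over all genes, and -0.19 without the 2 arrays. Tnf, a cytokine that starts inflammation, had 3.59, 3.80, 3.96, 2.84 and 3.01 in KO cells at 24 h and 4.40, 4.37, 4.49, 4.39 and 4.23 in KO cells at 6 h. Control arrays had 2.86, 0.054, 2.98, 2.39 and 2.19 at 24 h and 4.23, 4.21, 0.72, 3.92 and 4.25 at 6 h. KO arrays at 24 h were lower than all KO arrays at 6 h, and the same held in control cells apart from the 2 arrays. The Tnf difference was 0.43 ± 0.76, and 0.61 ± 0.42 without the 2 arrays (adjusted p = 0.98). Il6 had 6.33, 6.60, 6.80, 7.19 and 7.02 in KO cells at 24 h and 8.02, 8.38, 8.71, 9.01 and 8.54 in KO cells at 6 h. Control arrays had 6.13, 2.45, 5.85, 6.54 and 6.54 at 24 h and 7.59, 7.57, -0.65, 7.19 and 7.88 at 6 h. In both genotypes the 24 h arrays lay below the 6 h arrays, apart from the 2 control arrays, and its difference was -1.33 ± 1.47 with all arrays and -0.45 ± 0.51 without the 2. Without the 2 arrays Il1b differed by 0.045 ± 0.97, Cxcl10 by 0.035 ± 1.03, Cxcl9 by 0.66 ± 0.30 and the interferon gene Ifnb1 by -0.93 ± 0.66. Tnf, Il6, Il1b, Cxcl9, Cxcl10 and Ifnb1 were not called in either fit. Cxcl10, an interferon-induced chemokine, fell by 4.04 in KO cells (adjusted p = 0.0379) and by 4.07 in control cells without the 2 arrays (adjusted p = 0.00101), where it was -3.21 with all arrays (adjusted p = 0.134). Without the 2 arrays a 2-fold difference lies within 2 SE of the estimates for Tnf, Il6, Il1b, Cxcl9, Cxcl10 and Ifnb1. This fit does not resolve one of that size for these genes. The SE uses a spread shared with the unstimulated arrays. For Il1b their SD was 1.63 (KO) and 1.90 (control), against 0.13 and 0.24 on KO arrays at 24 and 6 h. Cxcl9 was well above background on 1 KO and 2 control arrays at 24 h, and on 5 KO and 4 control arrays at 6 h. For Ifnb1 it was 3 KO and 4 control arrays at 24 h, and 5 KO and 4 control arrays at 6 h. Both genes entered the test through KO LPS 6 h alone, the group where Ifnb1 was highest on average (2.73). On arrays below background their values are bounds. Il12b and Il10 were not among the genes tested.

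Of 41 feedback inhibitors measured, 1 rose and 3 fell in KO cells, where 3.54% of all genes rose and 4.2% fell. In control cells 4 rose and 3 fell, where 3.29% and 2.18% of all genes did. The replicate block made these counts 2 and 6 in KO cells and 6 and 5 in control cells, where 8.83% and 9.11%, and 8.23% and 5.7%, of all genes changed. Without the 2 arrays 4 rose and 5 fell in control cells, where 5.38% and 4.12% of all genes did. With the block as well 5 rose and 10 fell, where 11.9% and 10% did. At the 0.107% and 0.204% of all genes called for the genotype difference, the 0 members called in either fit say nothing particular of this list. The median difference was -0.23, and -0.12 without the 2 arrays. Nfkbia and Tnfaip3, which restrain NF-kB, differed by -0.62 ± 0.53 and -0.20 ± 0.52 without the 2 arrays, and -1.03 ± 0.59 and -0.61 ± 0.64 with all. The cytokine signalling inhibitor Socs3 (-0.038 ± 0.67), the phosphatase Dusp1 (0.21 ± 0.44), the mRNA-destabilising protein Zfp36 (0.11 ± 0.46) and the receptor antagonist Il1rn (-0.0056 ± 0.31) lay within 1 SE of 0 without the 2 arrays. For Nfkbia, Tnfaip3, Socs3, Dusp1 and Zfp36 a 2-fold difference lies within 2 SE of these estimates. A lack of change is therefore not shown for them. Tnip3, an inhibitor of NF-kB, fell in control cells (-1.55) and in KO cells (-1.0, adjusted p = 0.0251). The phosphatase gene Dusp2 fell in control cells (-1.66, adjusted p = 0.0152), with -1.25 in KO cells (adjusted p = 0.0571, or 0.0372 with the block). The nuclear receptor Nr4a2 rose in control cells (1.10, adjusted p = 0.00662), with -0.25 in KO cells, and its difference of -1.35 ± 0.34 was not called (adjusted p = 0.126, 0.0864 without the 2 arrays). With the replicate block it was -1.35 ± 0.35 (adjusted p = 0.0811), and without the 2 arrays as well it was called (-1.23 ± 0.28, adjusted p = 0.0355). Its control arrays at 24 h were 1.04, -0.21, 1.23, -0.053 and -0.30, so that replicates 1 and 3 were the high ones. The cytokine signalling inhibitor Socs2 rose in control cells (0.75, adjusted p = 0.0107) and differed by -0.83 ± 0.25 (adjusted p = 0.253).

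**Figure D4:**
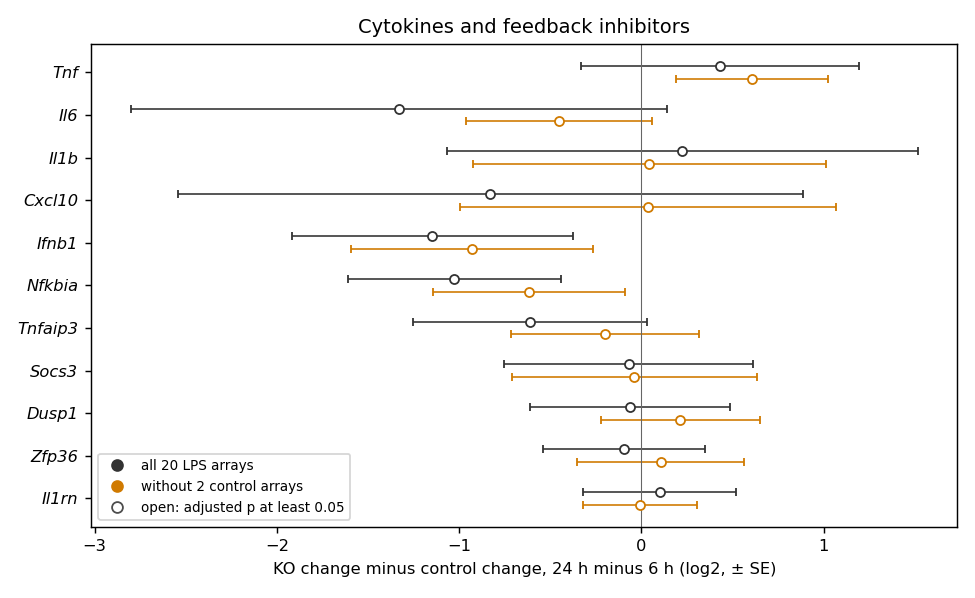
KO change minus control change from 6 to 24 h (log2, ± SE) for 5 cytokines and 6 feedback inhibitors, with all 20 LPS arrays (dark) and without 2 control arrays (orange). All points are open, since none passed the test without the replicate block, and the SE of Cxcl10 with all arrays spans 1.72 to either side.

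Of the 53 interferon-stimulated, 32 receptor and 32 maturation genes, 0 were called for the genotype difference in either fit, with or without the replicate block, where the share of all genes was 0.107% to 1.05%. In those lists 0, 1 and 7 members had an unadjusted p under 0.05 with all arrays, and 2, 3 and 9 without the 2, where 6.85% and 7.12% of all genes did. The genotype differences of single genes given next are without the 2 control arrays. Of 53 interferon genes 5 fell in KO cells and 0 in control cells, or 16 in control cells without the 2 arrays, where 4.2%, 2.18% and 4.12% of all genes fell. The block made these 8, 0 and 35, where 9.11%, 5.7% and 10% of all genes fell. KO counts of the lists are from fits with all arrays. Without the 2 arrays the KO calls over all genes went from 872 to 1486. The pairs 5 and 16, and 8 and 35, therefore come from unlike fits and do not compare the genotypes. The median change of the interferon genes was -0.74 in KO cells. In control cells it was -0.57 with all arrays and -0.81 without the 2. Their median difference was -0.13 with all arrays and 0.055 without them. Slfn1 (1.11 ± 0.27, adjusted p = 0.0864) and the guanylate-binding protein gene Gbp5 (-1.28 ± 0.44, adjusted p = 0.36) had an unadjusted p under 0.05 without the 2 arrays, as did no other member. Over all genes 3.54% rose and 4.2% fell in KO cells, and 3.29% rose and 2.18% fell in control cells. With the block these shares were 8.83%, 9.11%, 8.23% and 5.7%. Of 32 maturation and migration genes 2 rose and 3 fell in KO cells, and 4 rose and 1 fell in control cells (3 and 4, and 6 and 2, with the block). In control cells without the 2 arrays 3 rose and 3 fell (3 and 5 with the block). The list had a median difference of -0.60, which was -0.15 without the 2 arrays. The lipid-presenting molecule Cd1d1 rose in KO cells (1.85, adjusted p = 0.00173) and differed by 1.17 ± 0.49 (adjusted p = 0.56), and the inhibitory ligand Cd200 differed by -0.58 ± 0.20. Of 32 receptor genes 1 rose and 1 fell in KO cells and 0 changed in control cells (1 and 4 in KO cells, and 4 and 1 in control cells, with the block), with a median difference of -0.13. In control cells without the 2 arrays 1 rose and 0 fell (6 and 4 with the block). Tlr4 rose in control cells without the 2 arrays (1.04, adjusted p = 0.0058), with 0.37 in KO cells and a difference of -0.67 ± 0.32 (adjusted p = 0.691), and Ifngr1 differed by -1.08 ± 0.46. The repressor Prdm1, of the list of NF-kB, AP-1 and ETS factors (32 measured, median -0.16), differed by -1.16 ± 0.53. For 16 IRF and STAT factors the median was -0.41 with all arrays and -0.20 without the 2. Of 21 MHC class II genes 0 were called changed in either genotype, where 7.74% and 5.48% of all genes were. With the block 2 rose in KO cells and 1 in control cells, or 3 in control cells without the 2 arrays. The median difference of the list was 0.066 without the 2 arrays. H2-DMa, which edits peptides on class II, had 0.69 ± 0.28 (adjusted p = 0.507). The 16 class I genes had a median of 0.073. Of 36 genes of arginine and lipid mediators and alternative activation, 1 rose and 3 fell in KO cells and 0 rose and 1 fell in control cells, or 2 and 5 in control cells without the 2 arrays. With the block these counts were 2 and 4, 1 and 1, and 4 and 5. In control cells without the 2 arrays 5.38% of all genes rose and 4.12% fell, or 11.9% and 10% with the block. The lectin Mgl2 was among the list members that fell in KO cells (-0.62, adjusted p = 0.0214). The lipoxygenase Alox15 was well above background on 0 KO arrays and 1 control array at 24 h, and on 0 KO and 5 control arrays at 6 h, so its values in KO cells are bounds. Its difference was called with the block and without the 2 arrays (1.19 ± 0.27, adjusted p = 0.0356) and not with the block and all arrays (adjusted p = 0.414).

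Respiratory chain and cholesterol genes had differences on the positive side. Of 34 oxidative phosphorylation genes 33 had a difference above 0 with all arrays and 28 without the 2, where 5630 and 5575 of 11260 genes did. The median was 0.36 with all arrays and 0.25 without the 2. Medians of the change itself were 0.15 in KO and -0.28 in control cells, or -0.12 in control cells without the 2 arrays. Ndufa5 was the member called with all arrays. Without the 2 arrays limma called 0 members, and 9 members with all arrays and 8 without the 2 had an unadjusted p under 0.05, all with a higher KO change, where 2.77% and 3.18% of all genes did. With the replicate block Ndufa5, Ndufc1 and Atp5o, of complex I and ATP synthase, were called with and without the 2 arrays. In KO cells 1 member rose and in control cells 3 fell, or 9 and 9 with the block, where 8.83% of all genes rose in KO cells and 5.7% fell in control cells. Without the 2 arrays 0 rose and 1 fell in control cells, where 5.38% and 4.12% of all genes did. With the block as well 4 rose and 4 fell, where 11.9% and 10% did. Sdhc, a subunit of succinate dehydrogenase, fell in control cells (-0.40, adjusted p = 0.0282), with 0.16 in KO cells and a difference with all arrays of 0.56 ± 0.15 (adjusted p = 0.195). Of 23 cholesterol synthesis genes 20 were above 0 in either fit, with a median of 0.39 with all arrays and 0.23 without the 2, and Sqle was the member called, or Sqle and Msmo1 with the block and without the 2 arrays. Hmgcs1, the synthase of HMG-CoA, fell in control cells (-0.87, adjusted p = 0.00597), with -0.23 in KO cells and a difference without the 2 arrays of 0.59 ± 0.17 (adjusted p = 0.2). Genes of 1 list share arrays and are not independent. Of 34 cell cycle genes 30 lay above 0 (28 without the 2 arrays) with a median of 0.22 and 0 calls, and the inhibitor Cdkn1b differed by -0.72 ± 0.23 without the 2 arrays (adjusted p = 0.279). Of 24 stress genes Gclc was the member called, without the 2 arrays, joined by Hspa1a with the block and without the 2 arrays, and Gadd45b differed by -2.08 ± 0.69 with all arrays (adjusted p = 0.331) and -1.41 ± 0.45 without the 2. The 24 glycolysis and hypoxia genes had medians of 0.037 with all arrays and -0.12 without the 2, and 0 calls.

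**Figure D5:**
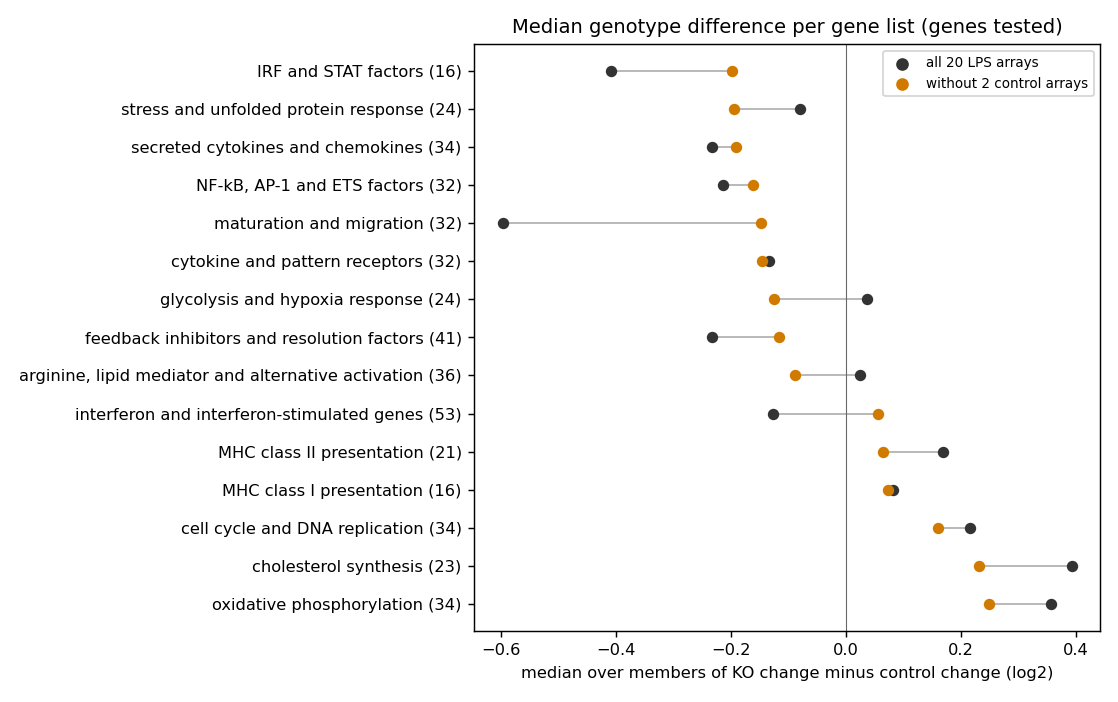
Median over the measured members of each of 15 gene lists of the KO change minus the control change from 6 to 24 h (log2), with all 20 LPS arrays (dark) and without 2 control arrays (orange); the number of members is in brackets. Oxidative phosphorylation and cholesterol synthesis lie above 0 in both fits, and the interferon list changes sides of 0.

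Of 66 measured markers of other cell types limma called 0 for the genotype difference in either fit. At an unadjusted p under 0.05 there were 2 higher and 1 lower with all arrays, where 2.77% and 4.08% of all genes were, and 6 and 1 without the 2, where 3.18% and 3.94% were. With the replicate block 0 were called with all arrays, and 1 without the 2, the T cell kinase gene Lck. Of 11 dendritic cell markers 7 were well above background on all 20 LPS arrays. Levels of the neutrophil markers, 12 that entered the test of 15 on the array, averaged 1.04 to 2.01 on KO arrays at 24 h, 0.92 to 1.75 on KO arrays at 6 h, 1.78 to 3.04 on control arrays at 24 h and 1.89 to 2.60 on control arrays at 6 h. Of the neutrophil markers S100a8, S100a9, Mmp8 and Lcn2 were above background on all 20 arrays, Mpo, Ctsg, Camp and Mmp9 on 19, and Elane on 0. The granule genes Ngp and Ltf were above background on 0 of 10 KO arrays and 10 of 10 control arrays, and the eosinophil granule gene Prg2 on 1 of 10 and 10 of 10. Ngp and Ltf are part of the neutrophil average, so its gap between genotypes rests in part on values that are bounds in KO cells. Macrophage markers, 17 that entered the test of 18 on the array, averaged 1.84 to 3.11 and 2.29 to 3.49 on KO arrays at 24 and 6 h, and 1.40 to 2.85 and 1.59 to 3.22 on control arrays at 24 and 6 h. Of the 18, 15 were above background on all 20 arrays, with Vsig4 on 0. Above background on all 20 arrays were 6 of 8 plasmacytoid dendritic cell markers, 3 of 8 B cell markers (Cd79b, Vpreb1 and Blnk), 4 of 12 T and NK cell markers (Cd3e, Cd4, Lck and Thy1), 2 of 9 erythroid and megakaryocyte markers (Epor and Pf4) and 7 of 11 stromal and endothelial markers. Of the plasmacytoid markers Siglech was above background on 1 of 20 arrays, and Bst2, on all 20, is also in the interferon list. Of 11 mast cell, basophil and eosinophil markers 0 were on all 20, with Fcer1a, Gata2 and Prss34 on 19. B cell Pax5 and Ebf1, T cell Cd3d, mast cell Ms4a2 and Mcpt4, erythroid Klf1 and stromal Lepr were above background on 0 arrays. The part of other cells in the called differences was not tested. In such bulk samples, fewer cells of a type and less RNA per cell cannot be told apart.

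With the slide as a fixed block, 22 of the 26 genes kept their sign (Gclc, Coch, Vegfc and Ift57 did not) and 8 were called, but 5672 genes were called in all, and that estimate is summed over a chain of slides that share groups. Slide 1 held control 24 h replicates 1 and 3 and control 6 h replicate 5, and within it the control change was 1.62 for Ttc39c, 0.85 for Glcci1, 0.58 for Smurf2, 0.91 for Gclc, 1.36 for Lactb and -0.46 for Ndufa5. These arrays also entered the changes given above, so a shared sign is partly built in. Replicate number and time also differ together within this slide. Other named genes had the opposite sign there, such as Cd1d1 (-0.81, against a control change of 0.65 with all arrays). KO arrays at 24 h and at 6 h lay on different slides, so slide and time cannot be told apart in KO cells.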

How the data were processed

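RNA of 30 samples, 6 groups of 5, was labelled with Cy5 and hybridised with a Cy3-labelled universal mouse reference, without dye swap, per the labels' protocols. The scanner files deposited by the authors hold spot intensity values, made per the file headers by Feature Extraction 10.7.3.1, with Agilent's log10 ratios of Cy5 over Cy3. The authors' deposited table of the whole series holds log2 ratios, and limma is named in the submitters' processing notes, with no version. That table correlated with the ratios computed here with r of 0.999885 to 0.999998 per array, had column medians of 0.00584 to 0.0183, and runs as sample over reference. Transcript accessions matched to RefSeq named 22951 of 41174 probes (16358 genes), and 18223 remained without a name.

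Intensities were corrected with normexp (offset 50) and loess within arrays (limma 3.58.1, R 4.3.3), with 1639 control spots at weight 0, spots flagged as outliers left out, and non-uniform local backgrounds replaced by the array's median background. The flags for background and saturation are the deposited scanner values, and 0 probes were counted as saturated in Cy5. One probe per gene (the brightest in Cy5 on average) was kept if its Cy5 signal passed the scanner's background test on all 5 arrays of a group, which left 11260 genes, 25 of them missing on an array. Group means over all 30 arrays were fitted with lmFit and eBayes (24 residual degrees of freedom), and p-values were adjusted by Benjamini-Hochberg over all genes. Scripts were tested on simulated data. The number of arrays limits the precision. Below background, values are bounds.

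Named were Irf4, the 8 genes per direction with the largest called difference in each fit (filled by smallest p), the list members with the smallest p, and 13 response genes fixed by name. Not all of these are described. Members and lists were chosen with earlier results of these data known. Alternatives were the arrays used, replicate number and slide as blocks, array weights, background, normalization, the authors' table, the filter, the probe rule and leaving out each array. Same-numbered LPS arrays of different groups deviated together (r over 0.1) in 25 of 30 pairs, and the other 5 pairs held 1 of the 2 control arrays that stood apart. Without these arrays all 24 pairs did (r from 0.572 to 0.875), and the replicate block takes the numbers to pair the samples. This pairing comes from the data, since the labels do not say what a number shares, and 10 of 18 arrays matched best an array of their own number. A split of replicates 1 to 3 from 4 and 5 would also make same-numbered arrays deviate together. Pairing by number was not tested against such a split. The main design has no block. The 2 promoter patterns were chosen after the called genes were known, and longer forms of the IRF element that were searched first are not reported here.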

Additional observations from a re-analysis of the deposited data

Results flagged for a closer look

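For 12 genes the change from 6 to 24 h of LPS differed between KO and control cells by the test of the difference itself. On the log2 scale, KO change minus control change, it was -2.32 for Csf2, -1.89 for Ttc39c, -1.81 for Glcci1, -1.61 for Stk38l, -0.88 for Smurf2 and -0.81 for Gtpbp4. It was -0.75 for Mtf2, -0.64 for Dhx36, -0.64 for Rnf215, 1.17 for Dynll1, 0.88 for Ndufa5 and 0.63 for Olfr615. Csf2 entered the test through KO LPS 6 h alone, where it was highest, and its control change lies near the detection limit. Without KO 6 h replicate 2 or 3 limma called 0 genes. Dynll1, Ndufa5 and Gtpbp4 were not called without the 2 control arrays that stood apart.

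Single arrays stood far from the other 4 of their group in 17 of 152 combinations of a gene and a group, where chance gives about 1 in 20. The value is the gap to the nearest array as a share of the group's range. Control 6 h replicate 3 was the lowest for Tnf (0.907), Il6 (0.919), Il1b (0.901), Ifnb1 (0.762), Tnfsf15 (0.814), Ttc39c (0.860), St8sia4 (0.790), Vegfc (0.747) and Ift57 (0.730), and the highest for Sqle (0.902). Control 24 h replicate 2 was the lowest for Tnf (0.728), Il6 (0.830), Il1b (0.926) and Asphd2 (0.747). Another control array at 24 h was the highest for Rnf215 (replicate 3, 0.878) and for St8sia4 (replicate 5, 0.765), and KO 24 h replicate 1 was the highest for Glcci1 (0.738). Of the 17, 14 lay on the 2 control arrays left out in the second fit.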

How the results depend on the processing

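Of the 4 main values, the counts of genes moved most with the samples and blocks used. Counts are given for the genotype difference, the KO change and the control change in this order, against 12, 872 and 617 with all arrays. They were 23, 1486 and 1070 without the 2 control arrays, 2, 496 and 382 with the 20 LPS arrays only, and 1159, 5491 and 3271 with array weights. The replicate block gave 58, 2020 and 1569, or 118, 3183 and 2467 without the 2 arrays. It ended no call of the genotype difference among the genes called in the same fit without it, and the named genes it added are given in the report. A term for replicates 1 to 3 against 4 and 5 gave 73, 2155 and 1666, and without the 2 arrays, an alternative chosen after seeing the data, 171, 3237 and 2617. The slide as a fixed block gave 5672, 5841 and 1044. As a random block it gave 1 and 475, with a control count within 1.5 times. The genotype count was also 7 with the background as scanned, 4 with Agilent's log ratios and 33 from Cy5 alone. Median centring, the authors' table, no filter and the mean of a gene's probes kept all 3 counts within 1.5 times. Leaving out 1 array gave 0 to 30 genes for the genotype difference, 491 to 1248 for KO cells, 322 to 1221 for control cells, and 0.083 to 0.38 for Irf4. The array weights ranged over 0.13 to 12, with 0.13 and 0.178 for the 2 control arrays.

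The 9 genes called in both fits kept their sign under all 16 settings and 20 left-out arrays. With the slide as a fixed block the sign turned for Irf4 (-0.47), Gclc (0.065), Coch (-1.83), Vegfc (-0.40), Ift57 (-0.72), Dkk1 (-0.071), Acp6 (-0.16), Tnf (-0.22), Cxcl9 (-2.21), Tnip3 (-1.68), Dusp2 (-3.11), Socs2 (0.079), Tlr4 (3.03), H2-DMa (-0.87), Hmgcs1 (-0.46) and Cdkn1b (0.71). It turned with Agilent's log ratios for Coch (-0.15), Cxcl9 (-0.43) and Dusp1 (0.034), from Cy5 alone for Dusp1 (0.092), and with the background as scanned for Il1rn (-0.10). Array weights turned Il1b (-0.045), Cxcl10 (0.31), Socs3 (0.092), Dusp1 (0.26), Zfp36 (0.20) and Il1rn (-0.20). Without the 2 arrays it turned for Cxcl10 (0.035), Dusp1 (0.21), Zfp36 (0.11) and Il1rn (-0.0056), as with the replicate term added, and with the replicate block beside it the values were 0.11, 0.22, 0.12 and -0.026. Leaving out 1 array turned Tnf (-0.077 to 1.12), Il6 (-2.09 to 0.31), Il1b (-0.73 to 1.00), Cxcl10 (-1.66 to 0.85), Socs3 (-0.40 to 0.23), Dusp1 (-0.35 to 0.39), Zfp36 (-0.38 to 0.099) and Il1rn (-0.23 to 0.33). The cause of these shifts was not tested. Genes near background in a group have only bounds there.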
